A study of Mus musculus with 12 samples.

Results

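The Fc receptor genes Fcgr1, Fcgr2b, Fcgr3, Fcgr4, Fcer1g and Fcrls were followed in RNA-seq of whole mouse spinal cord. They were found by symbol in the deposited table of raw counts and are 6 of its 45906 genes. All 6 passed the filter on low counts and belong to the 20155 genes tested. RNA came from 12 mice aged 7 months, all kept on a C57BL/6 background, 3 of each genotype. These were Plekhg5+/+, Plekhg5-/-, Plekhg5+/+ SOD1-G93A and Plekhg5-/- SOD1-G93A. SOD1-G93A mice carry a transgene for the mutant human protein and are a model of amyotrophic lateral sclerosis with motoneuron loss. Plekhg5, an exchange factor for small GTPases, was deleted in the Plekhg5-/- mice, and the study asked how its loss changes the response of the tissue to mutant SOD1. The tissue is a mixture of neurons, glia, vessels and blood.

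Fc receptors bind the constant part of antibodies and couple them to cells of the immune system. In mice the IgG receptors FcγRI (Fcgr1), FcγRIII (Fcgr3) and FcγRIV (Fcgr4) are activating. They need the common γ chain (Fcer1g), whose ITAM motif is phosphorylated by Src family kinases and then recruits Syk. FcγRIIB (Fcgr2b) is the inhibitory IgG receptor, which carries an ITIM motif and recruits the phosphatase SHIP1. Fcrls is a secreted, scavenger-like relative of the Fc receptors that is widely used as a marker of microglia. In the central nervous system these genes are transcribed mainly in microglia and macrophages, while B cells, neutrophils, NK cells and mast cells outside it also use some of them.

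Fcgr2b and 3 further genes of the family lie together on chromosome 1 of GRCm38.p6. They are Fcgr2b (NCBI gene 14130, minus strand, 170960558 to 170976071), Fcgr4 (246256, plus strand, 171018926 to 171029761), Fcgr3 (14131, minus strand, 171051169 to 171065915) and Fcer1g (14127, minus strand, 171229572 to 171234349). Fcrls (80891, minus strand, 87250736 to 87263765) and Fcgr1 (14129, minus strand, 96282909 to 96293969) lie on chromosome 3. Fcgr2b and Fcgr3 are close relatives, and their identity matters for the counts. The longest run that they share within 1 coding exon is shown here because it is longer than the 75-base reads. It lies at chr1:170966560-170966672 in Fcgr2b and at chr1:171054053-171054165 in Fcgr3, both on the minus strand, in exons with 255 coding bases each (GENCODE M21 transcripts, GRCm38, written on the genes' strand).
Shared run of Fcgr2b and Fcgr3, 113 bases: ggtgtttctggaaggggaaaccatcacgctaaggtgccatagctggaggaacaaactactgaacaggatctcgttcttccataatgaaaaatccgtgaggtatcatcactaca

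Over whole transcripts, 94 of the 1273 windows of 75 bases in the longest coding transcript of Fcgr3 (7.38%) also occurred in Fcgr2b, and no such window was shared by any other pair of the 6 genes. The authors split a read with several matches or several features into fractions. The counts of both genes were not whole numbers in the same 7 of the 12 libraries, while those of Fcgr1, Fcgr4, Fcer1g and Fcrls were whole in all. In each of the 7 the fractions of Fcgr2b and Fcgr3 made up a whole number together, as with 147.75 and 653.25 counts in the first Plekhg5+/+ library. The places to which single reads matched were not measured here. Fcgr4 overlaps LOC115487642 on the same strand, and Fcgr3 holds small tRNA and microRNA genes on its own strand.

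The promoters were read because members of this family moved together. RefSeq windows of GRCm38.p6 from 250 bases before to 50 after the start that the RefSeq promoter table gives were found for all 6 genes. The core of sites bound by PU.1, a transcription factor of myeloid cells, was searched as GAGGAA on both strands (TTCCTC on the opposite one). It occurred in 4 of the 6 genes, Fcgr1, Fcgr3, Fcgr4 and Fcrls, and in 28.3% of all 32851 promoter windows. The members are counted by gene and the background by window. A gene can have several windows, as Fcgr3 with its 2 starts, so both shares are not in the same unit. The 60 bases around each match are given with the match in capitals.
Fcgr1, chr3:96293992-96294051, minus strand, match beginning 55 bases before the start: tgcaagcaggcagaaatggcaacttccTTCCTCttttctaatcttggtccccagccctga
Fcgr3, chr1:171059395-171059454, minus strand, 15 and 6 bases before its 2 starts in the promoter table: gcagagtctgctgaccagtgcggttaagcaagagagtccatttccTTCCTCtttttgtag
Fcgr4, chr1:171018866-171018925, plus strand, 22 bases before the start: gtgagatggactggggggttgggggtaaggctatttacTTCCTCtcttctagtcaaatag
Fcrls, chr3:87263636-87263695, minus strand, 144 bases before the start in the promoter table: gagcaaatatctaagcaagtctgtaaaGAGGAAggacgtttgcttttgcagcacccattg

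In the 3 activating receptors the match lay within 60 bases of the start of the promoter table and read TTCCTC along the gene, in Fcrls farther away and in the other orientation. For Fcgr1 and Fcgr4 that start is also the 5′ end of the gene in the deposited annotation. The deposited ranges of Fcgr3 and Fcrls reach further upstream, to 171065915 and 87263765, so that their matches lie inside the gene, in each case in an intron of 1 GENCODE M21 transcript and in no exon. Fcgr2b and Fcer1g held no GAGGAA in these windows. TTCNNNGAA, the core of sites of STAT factors and the same on both strands, was found in Fcgr1 (8.3% of all windows) and in no other member. These are matches of letters, and binding was not measured here.

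The libraries held 30415643 to 38743628 counts. Plekhg5 itself was at 19.4 CPM or more (CPM, counts scaled to library size with TMM) in the 6 Plekhg5+/+ libraries with and without the transgene and at 3.28 to 4.72 in the 6 Plekhg5-/- libraries, and human SOD1 at 4420 to 5640 CPM in the transgenic and 0.153 to 5.47 in the other libraries. Genes of neurons, oligodendrocytes and astrocytes (Snap25, Mbp, Gfap) averaged 1530 CPM or more in each genotype. Of these the astrocyte gene Gfap went the same way as the Fc receptor genes (log2 fold change 1.23, adjusted p = 0.0198, in Plekhg5+/+ SOD1-G93A against Plekhg5+/+ mice, and -0.62, adjusted p = 0.517, in Plekhg5-/- SOD1-G93A against Plekhg5+/+ SOD1-G93A mice, edgeR), and its part in the results was not tested. The first Plekhg5+/+ SOD1-G93A library stood apart from the other libraries of its genotype: it was the highest of the 3 for 6 of 6 Fc receptor genes, and its summed level of 6 general microglia genes was 1080 CPM, against 533 and 579 in the others. Many of the results that rest on this library are given with and without it. Y-linked transcripts were present in 3 of 3 Plekhg5+/+, 2 of 3 Plekhg5-/-, 2 of 3 Plekhg5+/+ SOD1-G93A and 1 of 3 Plekhg5-/- SOD1-G93A libraries, so that sexes were not balanced, and a fit with them as a covariate called 5 of the 6 genes in Plekhg5+/+ SOD1-G93A against Plekhg5+/+ mice and 0 in the other comparisons. Of all 20155 genes tested, that fit called 532 higher in Plekhg5+/+ SOD1-G93A against Plekhg5+/+ mice.

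In mice with Plekhg5, 3 of the 6 Fc receptor genes were higher with the transgene. They were the microglial Fcrls, the inhibitory Fcgr2b and the signalling chain Fcer1g (edgeR's quasi-likelihood test, adjusted p under 0.05). The 3 activating IgG receptors had positive fold changes that did not pass this threshold. Of all genes tested, 2.09% were called higher in this comparison. Over the 6 genes the median log2 fold change was 1.44 (0.92 without the first transgenic library), beside -0.001 over all genes tested.

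**Figure D1:**
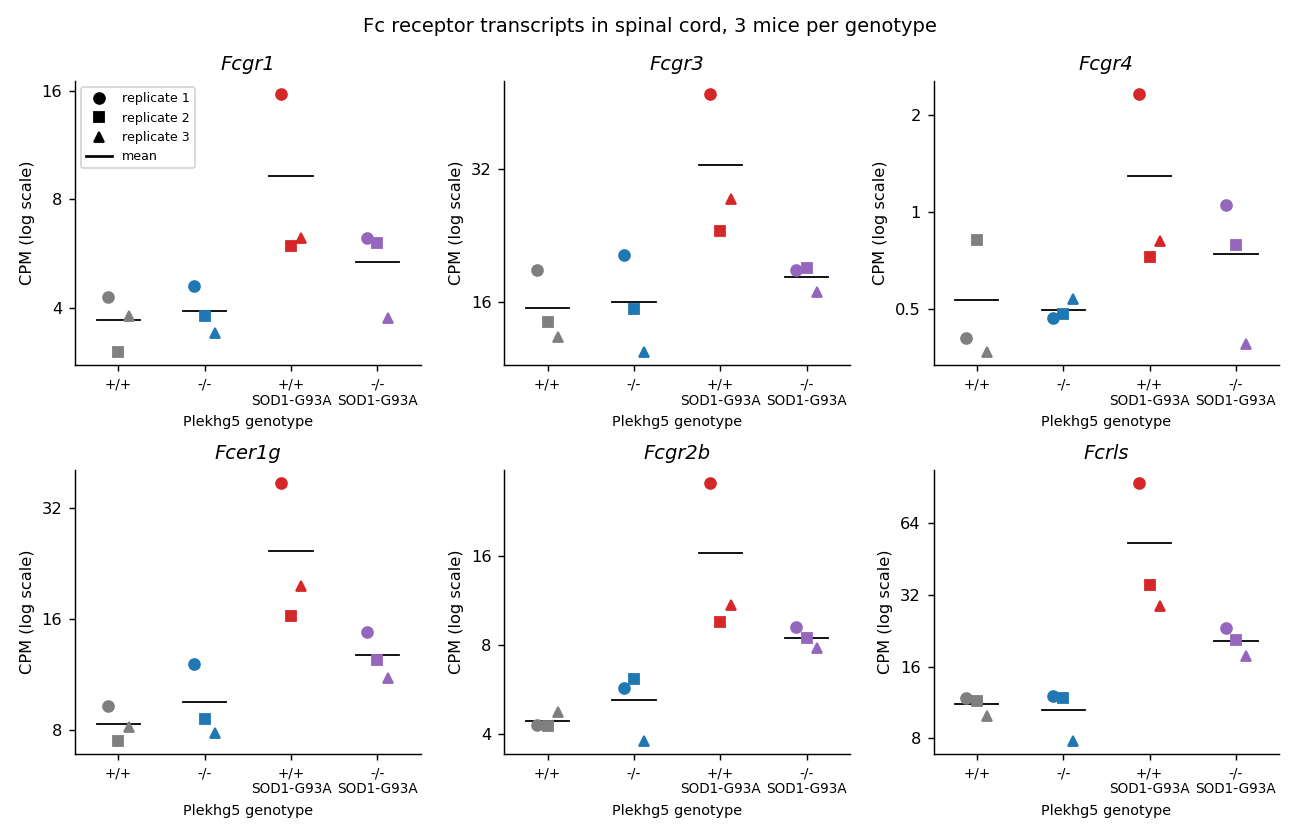
Level of each Fc receptor gene in each of the 12 libraries, in CPM on a log scale, by genotype (marker shape, replicate; line, mean of 3 mice). The first Plekhg5+/+ SOD1-G93A library is the highest in every panel, and the groups with and without the transgene are separated in mice with Plekhg5 for 5 of the 6 genes.

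Fcrls had the largest fold change of the 6. It was at 11.8, 11.5 and 9.92 CPM in the Plekhg5+/+ libraries and at 94.9, 35.2 and 28.9 CPM in the Plekhg5+/+ SOD1-G93A libraries. The groups did not overlap, and the first transgenic library was 2.96 times the mean of the other two. The log2 fold change was 2.26 (SE 0.399, 95% confidence interval 1.38 to 3.15, adjusted p = 0.0206), a 4.79-fold difference. Without the first transgenic library it was 1.54 (adjusted p = 0.000878).

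Fcgr2b, the inhibitory receptor, was at 4.29, 4.25 and 4.72 CPM in Plekhg5+/+ mice. It reached 28.3, 9.57 and 10.9 CPM in Plekhg5+/+ SOD1-G93A mice, each of them more than the highest value without the transgene. The log2 fold change was 1.88 (SE 0.358, 95% confidence interval 1.09 to 2.66, adjusted p = 0.0242), and 1.21 without the first transgenic library (adjusted p = 0.00371).

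Fcer1g, the common γ chain, was at 9.28, 7.49 and 8.15 CPM in Plekhg5+/+ and at 37.6, 16.3 and 19.7 CPM in Plekhg5+/+ SOD1-G93A mice. Again no transgenic library fell into the range of the controls. The log2 fold change was 1.56 (SE 0.278, 95% confidence interval 0.95 to 2.17, adjusted p = 0.0197). It was 1.12 without the first transgenic library (adjusted p = 0.00939).

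Of the activating receptors, Fcgr3 had 18.9, 14.4 and 13.3 CPM in Plekhg5+/+ and 47.5, 23.2 and 27.4 CPM in Plekhg5+/+ SOD1-G93A mice. Its groups were separate, and its log2 fold change of 1.07 lay just outside the threshold (SE 0.255, adjusted p = 0.0519). Fcgr1, the high-affinity IgG receptor, had 4.29, 3.02 and 3.80 CPM without and 15.7, 5.94 and 6.24 CPM with the transgene. Its groups were separate as well (log2 fold change 1.32, SE 0.345, adjusted p = 0.0671). Fcgr4 had few reads, 12 to 75 counts per library. It had 0.406, 0.818 and 0.367 CPM in Plekhg5+/+ and 2.33, 0.726 and 0.810 CPM in Plekhg5+/+ SOD1-G93A mice, and these groups overlapped (log2 fold change 1.28, SE 0.482, adjusted p = 0.178).

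Without the first transgenic library the log2 fold changes of Fcgr1, Fcgr3 and Fcgr4 were 0.72, 0.70 and 0.54 (adjusted p = 0.200, 0.126 and 0.632, edgeR). In total the groups with and without the transgene did not overlap in 5 of the 6 genes, with the transgenic mice higher, and 11.6% of all genes tested were separated in this direction. DESeq2, the tool of the study, called 5 of the 6 genes, all but Fcgr4, with and without its prior on fold changes (4.18% and 4.03% of all genes it tested were called higher). No member was called by edgeR without the first or without the second Plekhg5+/+ library, or with only these 2 genotypes in the fit, where the log2 fold changes were 1.85 to 1.86 for Fcgr2b, 1.49 to 1.65 for Fcer1g and 2.24 to 2.31 for Fcrls (adjusted p = 0.0783 to 0.139). Of all genes tested, 4 of 20509, 2 of 20485 and 2 of 19476 were called higher in these fits, in this order.

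**Figure D2:**
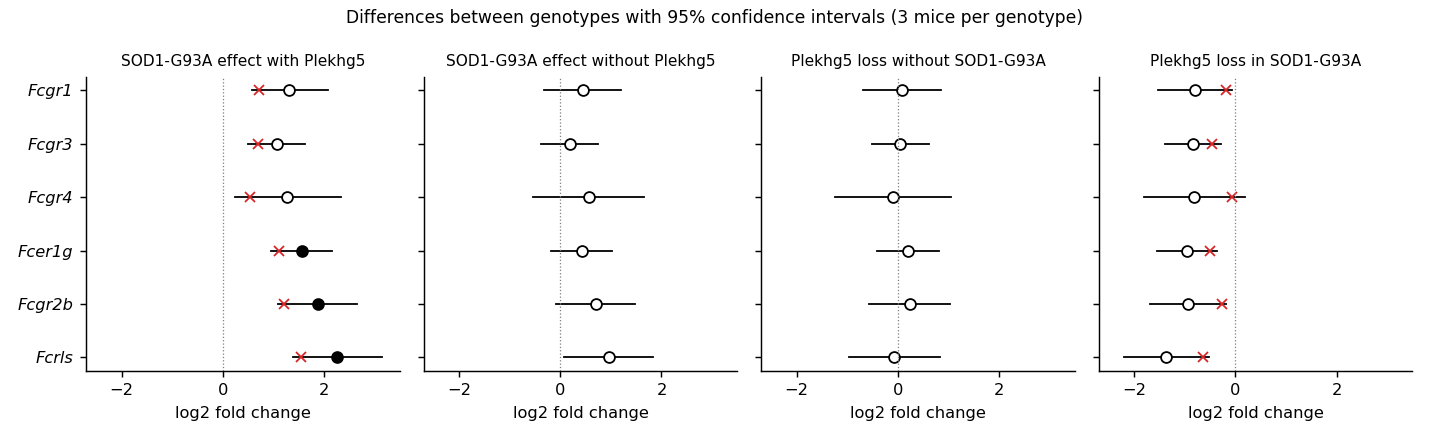
Log2 fold change of each Fc receptor gene in 4 comparisons of genotypes (circles, estimate; lines, 95% confidence interval; filled, adjusted p under 0.05; red crosses, estimate without the first Plekhg5+/+ SOD1-G93A library where it enters). Filled circles occur in the first comparison, for Fcer1g, Fcgr2b and Fcrls, and the intervals of Plekhg5 loss without the transgene lie on both sides of 0 for all 6 genes.

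In mice without Plekhg5 the estimated effects of the transgene were smaller, and no Fc receptor gene passed the threshold. Fcrls was at 12.0, 11.8 and 7.82 CPM in Plekhg5-/- and at 23.3, 20.7 and 17.7 CPM in Plekhg5-/- SOD1-G93A mice. These groups did not overlap (log2 fold change 0.96, SE 0.397, 95% confidence interval 0.08 to 1.84, unadjusted p = 0.0351, adjusted p = 0.892, edgeR). Fcgr2b was at 5.71, 6.12 and 3.79 CPM against 9.16, 8.44 and 7.79 CPM and was separate too (log2 fold change 0.70, SE 0.355, adjusted p = 0.950, edgeR). Fcer1g had 12.1, 8.59 and 7.86 CPM against 14.8, 12.4 and 11.1 CPM, with overlapping groups (log2 fold change 0.42, adjusted p = 0.950, edgeR).

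The activating receptors had log2 fold changes of 0.44 (Fcgr1), 0.19 (Fcgr3) and 0.56 (Fcgr4) in this comparison, with 95% confidence intervals that all included 0. Their groups overlapped. Of the 6 genes, 0 were called higher by edgeR (0.00496% of all genes tested) and 0 by DESeq2 (0.163% of all genes with its prior and 0.168% without it), and 1, Fcrls, had an unadjusted p under 0.05 (3.27% of all genes, higher). The groups were separate, transgenic mice higher, for 2 of the 6 genes and for 7.25% of all genes tested. The first Plekhg5+/+ SOD1-G93A library enters this test through the spread shared by the 4 genotypes. Without it, Fcrls and Fcgr2b had adjusted p-values of 0.0582 and 0.179 (edgeR). Then 4 of the 6 had an unadjusted p under 0.05 (1369 of all 20448 genes, either direction). Without the first Plekhg5-/- SOD1-G93A library the median log2 fold change was 0.31, against 0.50 with it. Then 0 had an unadjusted p under 0.05 (839 of all 20487, either direction).

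Among SOD1-G93A mice, all 6 Fc receptor genes were estimated lower in Plekhg5-/- than in Plekhg5+/+ animals, and none was called by edgeR. The Plekhg5+/+ SOD1-G93A libraries are those of the first comparison, so a high value there acts on both with opposite signs. Fcrls had the largest difference, with 94.9, 35.2 and 28.9 CPM in Plekhg5+/+ SOD1-G93A against 23.3, 20.7 and 17.7 CPM in Plekhg5-/- SOD1-G93A mice. Its groups were separate (log2 fold change -1.37, SE 0.382, 95% confidence interval -2.21 to -0.52, unadjusted p = 0.00475, adjusted p = 0.420, edgeR). Fcer1g was at 37.6, 16.3 and 19.7 CPM against 14.8, 12.4 and 11.1 CPM (log2 fold change -0.95, SE 0.270, unadjusted p = 0.00459, adjusted p = 0.416, edgeR). Fcgr3 was at 47.5, 23.2 and 27.4 CPM against 18.9, 19.1 and 16.8 CPM (log2 fold change -0.84, SE 0.253, adjusted p = 0.431, edgeR). Both were separate between the genotypes.

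Fcgr2b was less clearly apart, with 28.3, 9.57 and 10.9 CPM against 9.16, 8.44 and 7.79 CPM. Its log2 fold change was -0.94 (SE 0.341, adjusted p = 0.517, edgeR), and its second Plekhg5+/+ SOD1-G93A library lay close to the highest Plekhg5-/- SOD1-G93A library. Fcgr1 had 15.7, 5.94 and 6.24 CPM against 6.26, 6.07 and 3.75 CPM, and Fcgr4 2.33, 0.726 and 0.810 CPM against 1.05, 0.789 and 0.388 CPM, each with overlapping groups. Their log2 fold changes were -0.80 (SE 0.336, adjusted p = 0.547, edgeR) and -0.81 (SE 0.461, adjusted p = 0.608, edgeR).

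By count, 0 of the 6 genes were called lower by edgeR (0.0198% of all genes tested), 5 had an unadjusted p under 0.05 with a lower value (5.05% of all genes), and 4 had separate groups (10% of all genes). DESeq2 called 0 without the prior (0.243% of all genes, lower) and 3 with it (0.413%), Fcrls (adjusted p = 0.0127), Fcer1g (0.0180) and Fcgr3 (0.0403). Without the first Plekhg5+/+ SOD1-G93A library the log2 fold changes were -0.64 for Fcrls, -0.50 for Fcer1g, -0.47 for Fcgr3, -0.27 for Fcgr2b, -0.19 for Fcgr1 and -0.07 for Fcgr4, with adjusted p-values of 0.723 to 0.973 (edgeR). In bulk tissue, fewer cells of a type and less RNA per cell cannot be told apart.

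The test of the difference between both transgene effects, the interaction of SOD1-G93A and Plekhg5 loss, called 0 of the 6 genes and 0% of all genes (edgeR), and DESeq2, here without a prior, also called 0 of the 6 (0.537% of all genes in either direction). The interaction was negative for 6 of 6 genes, from -0.72 (Fcgr4) to -1.30 (Fcrls), and 4 had an unadjusted p under 0.05 (5.18% of all genes with a negative value). The smallest adjusted p was 0.457, for Fcer1g (log2 difference -1.14, SE 0.391, edgeR). Without the first Plekhg5+/+ SOD1-G93A library that of Fcer1g was -0.70 and that of Fcrls -0.57. Those of Fcgr3, Fcgr2b and Fcgr1 were -0.52, -0.51 and -0.27, and Fcgr4 changed sign (0.02).

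Loss of Plekhg5 without the transgene left the Fc receptor genes within the spread between mice. The log2 fold changes ran from -0.09 (Fcgr4) to 0.24 (Fcgr2b), with a median of 0.06, and the groups overlapped in 6 of 6 genes, while 8.71% of all genes tested had separate groups. For Fcer1g the 95% confidence interval was -0.42 to 0.82 and for Fcrls -0.97 to 0.83, and changes within these bounds are not excluded with 3 mice per group. edgeR and DESeq2 called 0 of the 6 and 0 had an unadjusted p under 0.05. Of all genes tested, 0.0298% were called in either direction by edgeR, 0.144% by DESeq2 with its prior and 0.153% without it, and 5.32% had an unadjusted p under 0.05 (edgeR). In the Plekhg5-/- group the third library was the lowest for 5 of the 6 genes.

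Levels of different genes were compared as CPM per kb of exon, using the exon length of the deposited annotation. In Plekhg5+/+ mice the order was Fcer1g (12.6 ± 1.38, SD, n = 3), Fcgr3 (5.35 ± 1.03), Fcrls (4.68 ± 0.420), Fcgr2b (2.86 ± 0.167), Fcgr1 (1.43 ± 0.247) and Fcgr4 (0.424 ± 0.200). The ranges of Fcgr3 and Fcrls overlapped, and the other neighbours in this order were separate.

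In Plekhg5+/+ SOD1-G93A mice the order was Fcer1g (37.3 ± 17.4), Fcrls (22.5 ± 15.4), Fcgr3 (11.3 ± 4.47), Fcgr2b (10.5 ± 6.77), Fcgr1 (3.59 ± 2.14) and Fcgr4 (1.03 ± 0.722). Ranges overlapped among the first 4 because the first library was high for each of them. Within a library, Fcrls was above Fcgr3 per kb in 3 of 3 Plekhg5+/+ SOD1-G93A and 3 of 3 Plekhg5-/- SOD1-G93A libraries and in 0 of the 6 libraries without the transgene. In Plekhg5-/- SOD1-G93A mice Fcrls was at 8.71 ± 1.18 and Fcgr3 at 6.28 ± 0.431 CPM per kb, with separate ranges. The exon length joins all isoforms of a gene, and the order depends on it. With the length of the longest GENCODE M21 coding transcript, an alternative chosen after seeing the data, Fcgr3 was at 11.5 ± 2.22 and Fcer1g at 12.2 ± 1.32 CPM per kb in Plekhg5+/+ mice, with overlapping ranges. Fcgr2b (1.25 ± 0.0729) then came after Fcgr1 (1.43 ± 0.247), also with overlapping ranges. That transcript of Fcgr2b has 3544 bases, but its reads were counted on the 1547 exon bases of the deposited annotation. The divisor thus holds bases on which no reads were counted, and this place of Fcgr2b cannot be read as its level. Fcrls was above Fcgr3 on that scale in 1 of 3 Plekhg5+/+ SOD1-G93A and 0 of 3 Plekhg5-/- SOD1-G93A libraries.

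The balance of the inhibitory and the activating receptors was taken as the log2 CPM of Fcgr2b minus the mean log2 CPM of Fcgr1, Fcgr3 and Fcgr4. It was 0.37, 0.34 and 0.77 in Plekhg5+/+ and 1.23, 1.01 and 1.04 in Plekhg5+/+ SOD1-G93A mice. In Plekhg5-/- mice it was 0.64, 0.96 and 0.38, and in Plekhg5-/- SOD1-G93A mice 0.85, 0.87 and 1.36. The balance was thus higher towards Fcgr2b in each Plekhg5+/+ SOD1-G93A mouse than in each Plekhg5+/+ mouse, whereas the groups with and without the transgene overlapped in mice without Plekhg5. The means of both transgenic genotypes were near each other (1.09 ± 0.12 and 1.03 ± 0.28, SD, n = 3 each). The first Plekhg5+/+ SOD1-G93A library, extreme for each single gene, was close to the other two of its genotype in this difference. Fcgr2b minus Fcgr3 alone, the pair that shares sequence, was -2.13, -1.74 and -1.48 in Plekhg5+/+ and -0.75, -1.27 and -1.33 in Plekhg5+/+ SOD1-G93A mice. The groups were separate, and here the first transgenic library stood apart from the other two (mean difference between the genotypes 0.67, and 0.48 without that library). These differences were measured on the same libraries as the fold changes and are given as a description.

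The 6 general markers of microglia and macrophages (Csf1r, Aif1, Itgam, C1qa, C1qb, C1qc) moved with the Fc receptor genes. All 6 were called higher with the transgene in mice with Plekhg5 (median log2 fold change 1.38), and their sum was 275 to 320 CPM in Plekhg5+/+ and 533 to 1080 CPM in Plekhg5+/+ SOD1-G93A libraries. It was 292 to 404 CPM in Plekhg5-/- and 391 to 439 CPM in Plekhg5-/- SOD1-G93A libraries. Each Fc receptor gene was therefore also expressed as its log2 CPM minus the mean log2 CPM of these 6 markers.

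On this scale Fcrls stood at -1.64, -1.40 and -1.94 in Plekhg5+/+ and at -0.40, -0.87 and -1.26 in Plekhg5+/+ SOD1-G93A mice, a mean difference of 0.82 with separate groups. Fcgr2b was at -3.08, -2.82 and -3.00 against -2.15, -2.74 and -2.66 (mean difference 0.45, separate groups). Fcer1g moved by 0.23, from -1.98, -2.01 and -2.22 to -1.74, -1.98 and -1.80, with groups that nearly touched at -1.98. The mean differences without the first transgenic library were 0.60 for Fcrls, 0.27 for Fcgr2b and 0.18 for Fcer1g. Fcgr1, Fcgr3 and Fcgr4 differed by -0.06, -0.22 and -0.16 from their Plekhg5+/+ means, within the spread between mice. In Plekhg5-/- SOD1-G93A mice the mean differences from Plekhg5+/+ were 0.38 for Fcrls, 0.42 for Fcgr2b and 0.11 for Fcer1g. How much of the difference of each Fc receptor gene goes with these markers was not tested.

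**Figure D3:**
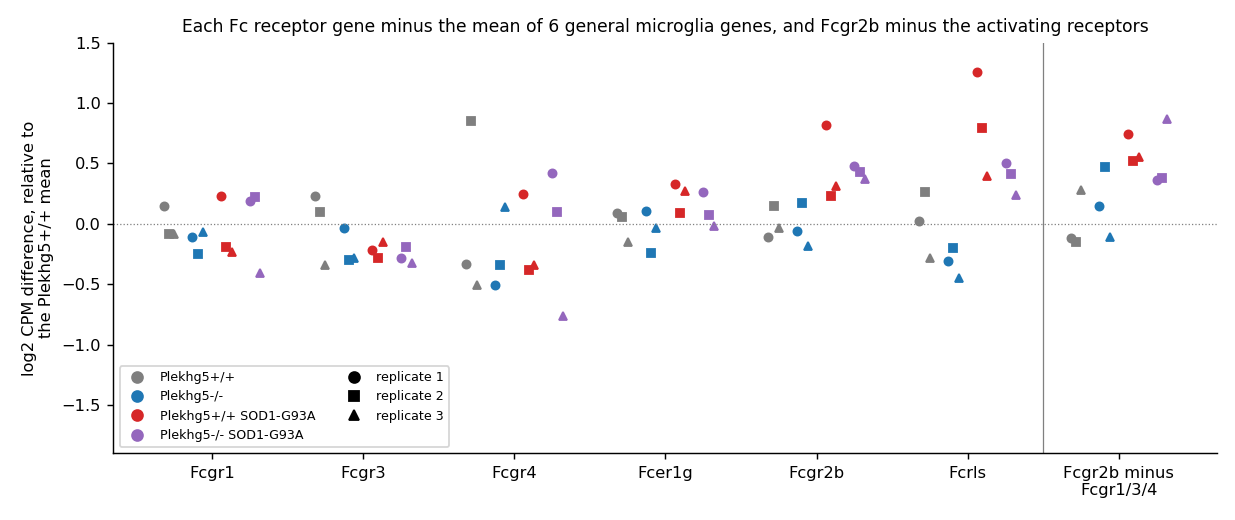
Left, log2 CPM of each Fc receptor gene minus the mean log2 CPM of 6 general microglia genes, and right, of Fcgr2b minus the mean of Fcgr1, Fcgr3 and Fcgr4, drawn relative to the Plekhg5+/+ mean (points, libraries; colour, genotype). Fcrls, Fcgr2b and the balance of Fcgr2b lie above 0 in each SOD1-G93A library. Fcgr3 lies below 0 in each SOD1-G93A library and also in each Plekhg5-/- library without the transgene.

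The 7 markers of homeostatic microglia behaved less uniformly. Of them 4 were called higher with the transgene in mice with Plekhg5 (Cx3cr1, Gpr34, Siglech and P2ry12), with a median log2 fold change of 0.54. Cx3cr1 had a log2 fold change of 1.13 (adjusted p = 0.0155), Gpr34 of 0.94 (adjusted p = 0.0340), P2ry12 of 0.52 (SE 0.124, adjusted p = 0.0493) and Tmem119 of 0.25 (SE 0.176, adjusted p = 0.496), beside 2.26 for Fcrls (edgeR). Without the first transgenic library 1 of the 7 was called, and 6 of the 6 general markers.

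Other cells that use Fc receptors were followed by markers in the same libraries. The 5 B cell markers summed to 1.22 to 2.77 CPM in Plekhg5+/+ and to 3.04 to 6.49 CPM in Plekhg5+/+ SOD1-G93A mice, and 1 of 5, Cd79b, was called higher (log2 fold change 1.84, SE 0.408, adjusted p = 0.0366). Without the first transgenic library 0 were called by edgeR, and 2 had an unadjusted p under 0.05. The 6 neutrophil markers, among them S100a8 and S100a9, summed to 9.63 to 46.6 CPM in Plekhg5+/+, 19.9 to 51.2 in Plekhg5-/-, 28.0 to 94.5 in Plekhg5+/+ SOD1-G93A and 14.4 to 158 in Plekhg5-/- SOD1-G93A mice, with overlapping ranges and 0 of 6 called by edgeR or DESeq2 (Mpo, log2 fold change 2.65, had an unadjusted p of 0.0338). The highest sum was in the first Plekhg5-/- SOD1-G93A library, which was also the highest of its genotype for 5 of the 6 Fc receptor genes.

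The 5 monocyte markers were at 10.4 to 15.4 CPM in Plekhg5+/+ and 10.9 to 20.8 CPM in Plekhg5+/+ SOD1-G93A mice, with 0 of 5 called by edgeR or DESeq2 and 0 under an unadjusted p of 0.05. In Plekhg5-/- mice they were at 8.28 to 12.9 CPM, and in the Plekhg5-/- SOD1-G93A libraries at 41.7, 11.5 and 8.68 CPM. Between these genotypes 0 of 5 were called by edgeR or DESeq2. Ly6c2 and Plac8 had unadjusted p-values of 0.00638 and 0.0324 there (edgeR). Of 7 markers of macrophages at the borders of the nervous system, Ms4a7 was called higher (log2 fold change 2.58, SE 0.410, adjusted p = 0.0125), while Pf4, Mrc1, Cd163 and Lyve1 had log2 fold changes of 0.81, -0.12, -0.89 and -0.86 that did not pass the test. Of the 7, 2 had an unadjusted p under 0.05, Ms4a7 and Pf4 (0.0433). The sum of this list was 12.5 to 21.5 CPM in Plekhg5+/+ and 10.6 to 21.2 CPM in Plekhg5+/+ SOD1-G93A mice. The 5 NK cell and 5 mast cell markers were near 0, at most 1.14 and 0.572 CPM in sum in any library, and none passed the filter. None of these markers was at 0 in all libraries. Their part in the differences of the Fc receptor genes was not tested.

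Of 14 genes of ITAM signalling, the pathway behind the activating receptors, 9 were called higher and 0 lower in Plekhg5+/+ SOD1-G93A mice (2.09% of all genes tested were called higher), with a median log2 fold change of 1.07. Among them were Tyrobp, the adaptor DAP12 (1.68, SE 0.269, adjusted p = 0.0153), and Lat2, a transmembrane adaptor (1.49, SE 0.275, adjusted p = 0.0197). Syk itself had a log2 fold change of 0.66 (SE 0.255) and was not called (adjusted p = 0.192). Without the first transgenic library 4 of the 14 were called. In Plekhg5-/- SOD1-G93A against Plekhg5+/+ SOD1-G93A mice all 14 had negative log2 fold changes (median -0.60). Of them 0 were called by edgeR, 1 by DESeq2 with its prior and 0 without it, and 9 had an unadjusted p under 0.05. Over all genes the shares called lower were 0.0198%, 0.413% and 0.243%, and 5.05% had a lower value with an unadjusted p under 0.05 (edgeR). Without the first Plekhg5+/+ SOD1-G93A library 13 of the 14 were negative (median -0.26), and 3 had an unadjusted p under 0.05.

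Of 8 genes whose products act against this pathway (phosphatases, adaptors and the kinase Csk), 2 were called higher with the transgene. They were Ptpn6, the phosphatase SHP1 (1.29, SE 0.241, adjusted p = 0.0198), and Dok1, a docking protein (1.14, SE 0.273, adjusted p = 0.0493). Inpp5d, which encodes the SHIP1 that Fcgr2b recruits, had a log2 fold change of 0.79 (SE 0.191, adjusted p = 0.0516). The median of the list was 0.19, with 5 genes positive and 3 negative. Without the first transgenic library 1 of the 8 was called, Ptpn6 (0.86, adjusted p = 0.0113, edgeR). Dok1 was then at 0.77 (adjusted p = 0.195, edgeR). The median was 0.05, with 4 genes positive and 4 negative.

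**Figure D4:**
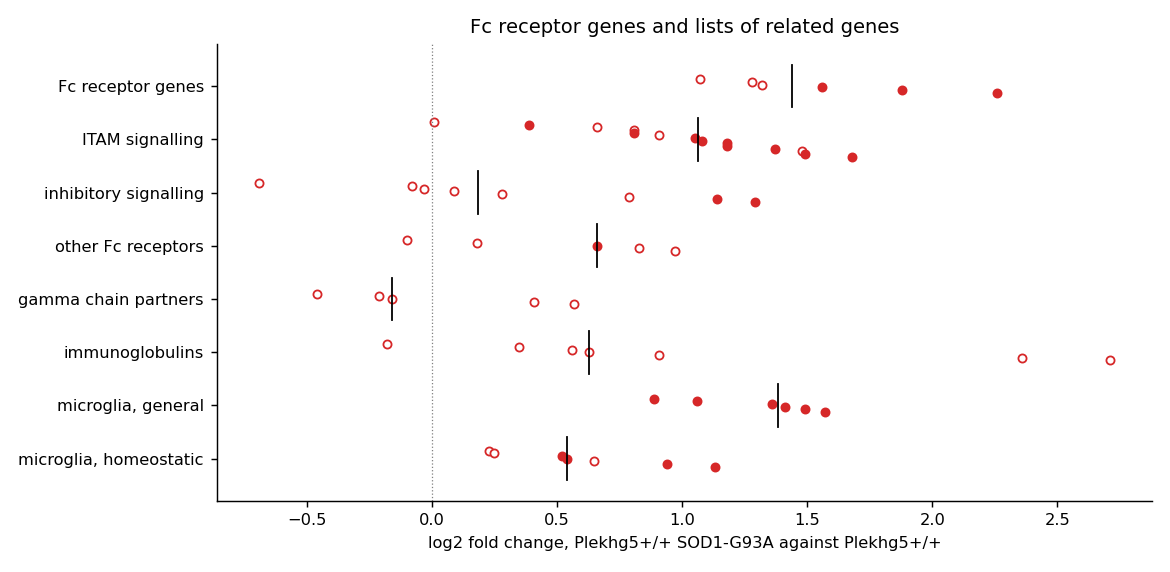
Log2 fold change between Plekhg5+/+ SOD1-G93A and Plekhg5+/+ mice for the Fc receptor genes and lists of related genes (circles, genes tested; filled, adjusted p under 0.05; vertical bars, list medians). The medians of the Fc receptor genes (1.44) and of general microglia genes (1.38) are near each other, and no gene of the γ chain partners or immunoglobulins is filled.

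Other Fc receptors were few in this tissue. Of 13 further members of the wider family, 5 passed the filter and 1 was called higher, Trim21, a cytosolic antibody receptor (log2 fold change 0.66, SE 0.139, adjusted p = 0.0304), though not without the first transgenic library. Fcgrt, the neonatal Fc receptor that recycles IgG, was at 18.6 CPM in Plekhg5+/+ mice and did not pass the test (log2 fold change 0.18, adjusted p = 0.485). Fcrl1 and Fcmr, receptors of B cells, had log2 fold changes of 0.97 and 0.83 at under 0.5 CPM (adjusted p = 0.190 and 0.326). The IgE receptor chains Fcer1a and Ms4a2 did not pass the filter. The γ chain also serves other receptors, of which 5 of 7 were tested. By edgeR and DESeq2 0 of the 5 were called, 0 had an unadjusted p under 0.05, and the median log2 fold change was -0.16. Pira2, Clec4d and Lilra5 had log2 fold changes of 0.57, -0.46 and 0.41.

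The ligands were measured through 8 immunoglobulin genes. Transcripts of the IgG heavy chains Ighg2b, Ighg2c and Ighg3 were on average at most 0.831 CPM in any genotype, and Ighg1 did not pass the filter. Ighm, the IgM heavy chain, was at 65.8 CPM in Plekhg5+/+ and 58.0 CPM in Plekhg5+/+ SOD1-G93A mice (log2 fold change -0.18, adjusted p = 0.607, edgeR). Of the 7 tested genes 0 were called by edgeR and 1 by DESeq2 in Plekhg5+/+ SOD1-G93A against Plekhg5+/+ mice, and 2 had an unadjusted p under 0.05. Igha (log2 fold change 2.36, SE 0.608, adjusted p = 0.0639) and Ighg2b (2.71, SE 1.14, adjusted p = 0.233) had unadjusted p-values of 0.00211 and 0.0352, and Ighg3 had a log2 fold change of 0.63 (adjusted p = 0.292). These values are of transcripts made in the tissue and say nothing of antibody that arrives with blood.

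The Fc receptor genes of chromosome 1 share their stretch with genes of other functions. Within 250 kb of Fcgr2b, Fcgr4, Fcgr3 or Fcer1g the annotation lists 67 other genes, of which 30 were tested. Their median log2 fold change between Plekhg5+/+ SOD1-G93A and Plekhg5+/+ mice was -0.03, and 1 was called, Arhgap30, which encodes a GTPase-activating protein (0.95, adjusted p = 0.0362). Fcrlb, a nearby Fc receptor-like gene, had a log2 fold change of -0.10 (adjusted p = 0.841). In Plekhg5-/- SOD1-G93A against Plekhg5+/+ SOD1-G93A mice 0 of the 30 were called by edgeR or DESeq2 and 4 had an unadjusted p under 0.05 (median -0.06). Of all genes tested, 1741 of 20155 had an unadjusted p under 0.05 there, in either direction (edgeR).

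**Figure D5:**
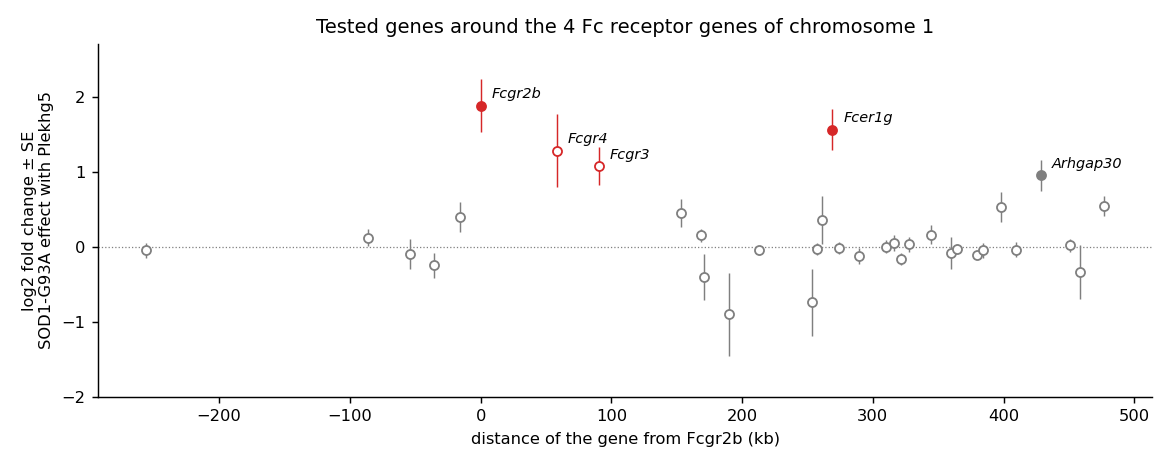
Log2 fold change ± SE between Plekhg5+/+ SOD1-G93A and Plekhg5+/+ mice of the genes tested around the Fc receptor genes of chromosome 1, by distance of each gene from Fcgr2b in kb (red, Fc receptor genes; filled, adjusted p under 0.05). The 4 Fc receptor genes lie at 1.07 to 1.88, above each of the other genes, which lie between -0.90 and 0.95.

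Across the 12 libraries the 6 genes varied together, with Pearson correlations of log2 CPM from 0.759 to 0.974 over the 15 pairs, and from 0.399 to 0.938 over the 11 libraries without the first Plekhg5+/+ SOD1-G93A one. The libraries share their genotypes, so these values describe the set and were not tested. The gene most like Fcgr1 was Lyn (r = 0.986), followed by Pik3cg and Lrmp. Most like Fcgr3 were Gm12164, P2ry6 and Prdx6 (r = 0.985 to 0.986), and most like Fcgr4 were Dlgap5, Trim30a and Ube2c (r = 0.929 to 0.934). Fcer1g was closest to Hcls1 (r = 0.994), then to Laptm5 and Cotl1. Fcgr2b was closest to Tnfrsf1a (r = 0.987), Bcl2a1d and Serpina3n, and Fcrls to C3ar1 (r = 0.992), Bcl2a1d and Slc14a1. Without the first Plekhg5+/+ SOD1-G93A library the correlation of Hcls1 with Fcer1g was 0.989, of C3ar1 with Fcrls 0.984 and of Dlgap5 with Fcgr4 0.851.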

How the data were processed

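Polyadenylated RNA of the spinal cord of 12 mice was sequenced with a stranded kit and 75-base single-end reads, and RNA integrity numbers were at least 8.7 per the labels. Per the submitters' notes and the methods, the authors used cutadapt 2.4 for trimming, STAR 2.7.2b for alignment to GRCm38.p6 plus a human SOD1 cDNA, and featureCounts 1.6.4 for stranded counts on RefSeq exons. Reads with several matches or features were split. The deposited values are thus expected counts per gene, without normalization.

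The counts were rounded and filtered with filterByExpr, which kept 20155 of 45906 genes. They were scaled with TMM and fitted with edgeR 4.0.16 (robust quasi-likelihood, the 4 genotypes together, R 4.3.3). Adjustment followed Benjamini and Hochberg over all genes tested, and genes under 0.05 are called. Standard errors and confidence intervals come from these fits. Log2 CPM used a prior count of 2. Models were tested on simulated data. The members and gene lists were chosen with earlier results of these data known, so no list was tested as a set. Of each list the 3 genes with the smallest p in Plekhg5+/+ SOD1-G93A against Plekhg5+/+ mice were named, beside marker genes, called neighbours and the 3 genes most correlated with each member. Syk, Inpp5d, Csk, Fcgrt, Fcer1a, Ms4a2, Ighg1, Ighg2c, Ighm and Fcrlb were added after their values were seen. Some genes that the naming rule would give are not reported here. The alternatives were DESeq2 1.42.0, limma 3.58.1 (voom), other size factors, filters and covariates, and each library left out, and, added after seeing the data, another gene length for levels per kb. Libraries of 1 genotype differed by more than counting noise, and intervals cover the spread between mice.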

Additional observations from a re-analysis of the deposited data

How the results depend on the processing

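The number of Fc receptor genes called higher in Plekhg5+/+ SOD1-G93A than in Plekhg5+/+ mice, 3 with edgeR, was 5 with DESeq2 with or without its prior, 5 with a covariate for Y-linked transcripts, 5 at an adjusted p under 0.1, 1 with limma voom and sample quality weights, 0 without a filter on low counts and 0 with only these genotypes in the fit. It ranged from 0 to 5 over the fits that each left out 1 library, 0 without the first or second Plekhg5+/+ library and 5 without the second Plekhg5+/+ SOD1-G93A library. Calls over all genes changed as well. For an adjusted p under 0.1 the number of all genes is not given here, so the 5 at that threshold stand without a background. Called higher were 422 of 20155 genes in the main fit, 532 of 20155 with the Y-linked covariate and 255 of 20155 with limma voom. Without the filter they were 390 of 33742, and with only these genotypes 2 of 19476. Without the first or second Plekhg5+/+ library they were 4 of 20509 and 2 of 20485, and without the second Plekhg5+/+ SOD1-G93A library 626 of 20511. In Plekhg5-/- SOD1-G93A against Plekhg5+/+ SOD1-G93A mice, DESeq2 with the prior called 3 in place of 0. The other comparisons kept 0 calls in all alternatives run. Log2 fold changes in both of these comparisons kept their sign for all 6 genes. In Plekhg5-/- against Plekhg5+/+ mice, where values were near 0, signs changed when 1 library was left out, with ranges of -0.04 to 0.21 (Fcgr1), -0.17 to 0.21 (Fcgr3), -0.30 to 0.35 (Fcgr4), -0.01 to 0.32 (Fcer1g) and -0.17 to 0.10 (Fcrls). With the Y-linked indicator, Fcgr4 was 0.14 and Fcrls 0.04 there. The interaction of Fcgr4 ranged from -1.16 to 0.02 over the same fits. The cause of these changes was not tested.

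With the replicate number as a block, 5 of the 6 genes were called in the first comparison, and 533 of the 20155 genes tested were called higher. Same-numbered libraries had correlations of -0.163 to 0.318, over 0.1 in 5 of 18 pairs. Libraries with different numbers were not compared in this way, so whether the numbers pair the mice was not tested. Fcgr4 had the fewest counts of the 6 genes, 12 to 75 per library, and how depth limits each gene was not tested.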
